A study of Arabidopsis thaliana with 2 samples.

Results

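The regions described here are MBD9 summits that lay upstream of non-coding RNA genes and of no protein-coding gene. A summit is the single base at which the ChIP signal of a peak is highest. Members were chosen by position alone: a summit had to lie within 1 kb upstream of the annotated 5′ end (TSS) of a non-coding RNA gene, outside every protein-coding gene, outside the 1 kb upstream of every protein-coding TSS, and more than 100 bp from every tRNA gene. Of 13993 summits, 275 fulfilled this rule (1.97%, 95% Wilson interval 1.75 to 2.21). They lay in 250 peaks and upstream of 269 non-coding genes.

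The summits came from 1 anti-FLAG ChIP-seq library of Arabidopsis thaliana seedlings, ecotype Col-0, 13 days after germination. The tagged plants were mbd9-3 mutants with a transgene that expresses MBD9-3xFLAG from the MBD9 promoter, taken as a T4 line. Untagged wild-type Col-0 seedlings of that age gave the only control library, which entered the peak calling and whose own profile was not analysed here. With 1 library in each group no difference could be set against replicate error, so all values below are descriptions of this summit list, and their intervals cover counting error only.

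MBD9, a protein with a methyl-CpG-binding domain, associates with SWR1, the remodelling complex that places the histone variant H2A.Z into nucleosomes. H2A.Z in plants is known from the first nucleosomes of genes and from the bodies of responsive genes. Non-coding RNA genes have promoters of their own: miRNA genes and most snRNA and long non-coding RNA (lncRNA) genes are transcribed by RNA polymerase II. Dicer-like proteins cut miRNA precursors, and TAS transcripts are the source of trans-acting small interfering RNAs. In the nucleus, snRNAs build the spliceosome, and snoRNAs guide the modification of ribosomal RNA.

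The 51 bases centred on the 10 highest-scoring members are shown because they are the strongest members and because part of the motif content described further below can be read in them. The motif counts use 50 bp on each side of a summit, so a counted motif can lie outside the bases shown. They are on the plus strand of TAIR10.1, named by the non-coding gene downstream, with capitals for the G-box (CACGTG), the ABRE core (ACGTGG), the W-box (TTGACC), the auxin response element (TGTCTC) and the site II element (TGGGCC) on either strand.
AT3G24518, chr3:8943258-8943308: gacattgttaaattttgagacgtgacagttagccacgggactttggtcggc
AT3G02895, chr3:4723901-4723951: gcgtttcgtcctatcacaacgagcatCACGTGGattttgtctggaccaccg
AT4G06425, chr4:9415332-9415382: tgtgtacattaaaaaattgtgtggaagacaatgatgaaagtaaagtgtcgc
AT3G01765, chr3:1730630-1730680: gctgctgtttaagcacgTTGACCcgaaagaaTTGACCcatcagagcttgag
AT5G05455, chr5:14755613-14755663: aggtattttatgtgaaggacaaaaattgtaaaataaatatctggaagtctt
AT3G01965 and AT3G00240, chr3:2346062-2346112: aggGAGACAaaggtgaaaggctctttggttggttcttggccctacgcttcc
AT4G09495, chr4:17537970-17538020: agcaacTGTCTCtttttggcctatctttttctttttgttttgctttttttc
MIR167a, chr3:8107751-8107801: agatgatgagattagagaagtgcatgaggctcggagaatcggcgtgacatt
AT5G09365, chr5:26139495-26139545: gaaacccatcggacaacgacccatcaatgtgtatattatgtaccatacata
AT5G07815, chr5:21029848-21029898: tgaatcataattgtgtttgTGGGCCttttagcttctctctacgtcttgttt

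The second set shows summits upstream of miRNA, TAS, snRNA and snoRNA genes that are described below, with the same capitals and with the telo box (AAACCCTA) added.
MIR163, chr1:24883636-24883686: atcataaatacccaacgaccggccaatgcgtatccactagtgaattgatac
MIR168b, chr5:18359125-18359175: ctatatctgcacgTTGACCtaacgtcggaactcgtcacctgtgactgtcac
MIR408, chr2:19319476-19319526: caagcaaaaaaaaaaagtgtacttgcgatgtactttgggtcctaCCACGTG
MIR5645a, chr3:17418557-17418607: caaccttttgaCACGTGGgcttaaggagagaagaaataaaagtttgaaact
TAS3, chr3:5861268-5861318: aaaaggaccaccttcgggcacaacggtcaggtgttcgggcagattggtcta
snRNA gene AT1G06873, chr1:12986550-12986600: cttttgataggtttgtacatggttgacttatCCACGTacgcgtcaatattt
snoRNA gene AT2G06855, chr2:7520025-7520075: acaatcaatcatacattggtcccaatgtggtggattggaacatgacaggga
snoRNA gene AT5G00755, chr5:142783-142833: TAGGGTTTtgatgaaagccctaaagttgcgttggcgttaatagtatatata

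The score of a summit is -log10 of the q value of the peak caller, so a score of 10 stands for a q value of 1 in 10 to the power of 10. Scores of the 275 members ran from 2.02 to 90.2, with quartiles of 6.81 and 26.8 and a median of 13.6 (95% interval of the median 11.0 to 16.1). A score of at least 10 was reached by 169 members (61.5%, 55.6 to 67.0), against 50.5% of all summits. Distal summits, which lay in no gene and upstream of none, had a median of 13.6 (13.0 to 14.4) and 62.2% of them reached 10 (60.4 to 63.9). Summits within 1 kb upstream of a protein-coding TSS had a median of 11.3 (10.9 to 11.7), and 54.2% reached 10 (52.8 to 55.6). For the share that reached 10, the members' interval held the value of the distal summits and lay above that of the summits upstream of protein-coding genes. For the median score, it held the values of both. These sets were not filtered alike. Members exclude summits inside protein-coding genes, whereas summits upstream of a protein-coding TSS can lie inside another protein-coding gene. With summits inside protein-coding genes kept, the median of the members was 11.0 (9.97 to 12.4). Whether the filter accounts for the difference in shares was not tested.

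Before the exclusions, 671 summits lay within 1 kb upstream of a non-coding gene. Of these, 189 also lay upstream of a protein-coding TSS, with a median score of 12.9, and 203 lay inside a protein-coding gene, with a median of 8.66. Another 4 lay close to a tRNA gene. The 275 that remained were thus 41.0% of the summits that a window upstream of non-coding genes alone would give. Not all of them lay between genes. Inside a gene of another type than protein-coding lay 30 members, with a median score of 17.6, and 21 of these reached 10. Also within 1 kb upstream of a pseudogene lay 4 members, and how many of these are among the 30 was not counted. The bases that fulfil the rule add up to 1.84 Mb, 1.54% of the nuclear genome, and carried 149 members per Mb (exact Poisson interval 132 to 168). The upstream regions of protein-coding genes, 25.4 Mb, carried 201 summits per Mb (195 to 206), the distal bases 137 (132 to 142), and the whole nuclear genome 117. Bases inside other protein-coding genes were left in the upstream regions of protein-coding genes. Members were found on all 5 chromosomes, from 134 per Mb (103 to 172) on chromosome 1 to 167 (122 to 222) on chromosome 4, with intervals that overlapped.

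The plot of scores by gene type shows that all types with more than 3 members covered both weak and strong summits.

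**Figure D1:**
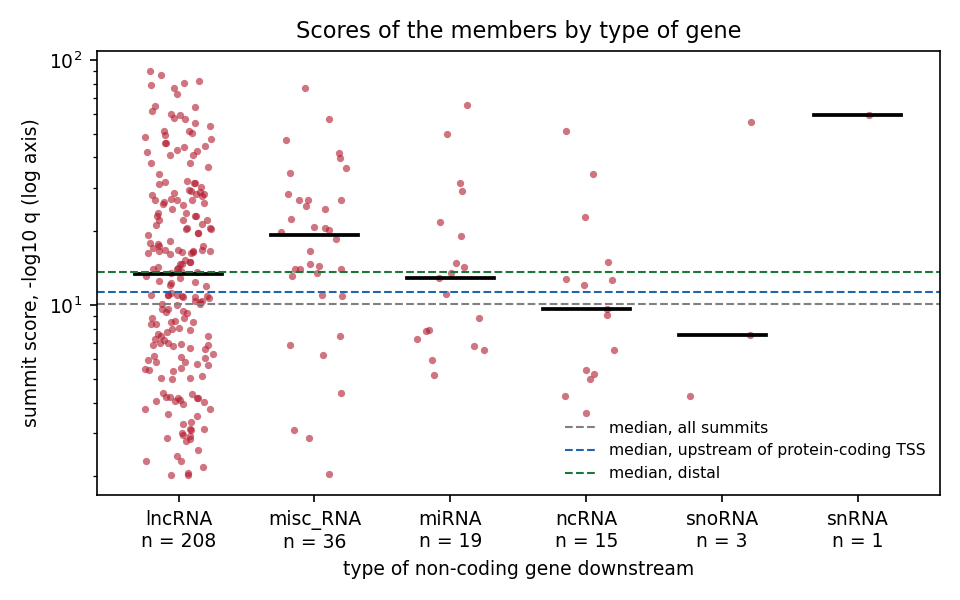
Score of each member (-log10 q, log axis) by type of non-coding gene downstream, with black bars at the medians and dashed lines at the medians of 3 other sets of summits. Points are summits, a summit upstream of genes of 2 types stands under both, and the bar of misc_RNA at 19.3 lies above that of lncRNA at 13.4.

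Most members lay upstream of lncRNA genes. These were 208 summits upstream of 196 lncRNA genes, with scores from 2.02 to 90.2 and a median of 13.4 (10.8 to 16.3), and 126 of the 208 reached a score of 10. The annotation class misc_RNA, transcripts that were put in no named class, had 36 members upstream of 31 genes with a median of 19.3 (14.0 to 25.3), and 29 of the 36 reached 10 (80.6%, 65.0 to 90.2). The 19 members upstream of miRNA genes had a median of 12.9 (7.30 to 21.8). The class ncRNA, which holds the TAS genes and other single transcripts, had 15 members with a median of 9.63 (5.24 to 14.9). The misc_RNA summits were thus high more often than those of lncRNA genes (60.6%, 53.8 to 67.0), although the intervals of both shares overlap. A few members, 7 in all, lay upstream of genes of 2 types and are counted under both. Only 3 members lay upstream of snoRNA genes and 1 upstream of snRNA genes.

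Genes of all types had an upstream summit in 14.6% of cases (any summit within 1 kb of the TSS, member or not). The share was 12.8% of 3480 lncRNA genes (11.7 to 13.9), 13.4% of 508 misc_RNA genes (10.7 to 16.6), 11.3% of 326 miRNA genes (8.35 to 15.3), 12.2% of 221 ncRNA genes (8.53 to 17.2) and 11.1% of 287 snoRNA genes (8.01 to 15.3). Only the interval for lncRNA genes lay below the share over all genes among these 5 types. The intervals of the snRNA genes, with 4 of 82 (4.88%, 1.91 to 11.9), and the antisense_RNA genes, with 5 of 79 (6.33%, 2.73 to 14.0), also lay below it, and none of the 4 rRNA genes had a summit upstream. Protein-coding genes had one in 17.3% of cases (16.9 to 17.8).

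Many of these genes stand so close to protein-coding genes that few of their upstream bases could hold a member. The antisense_RNA genes had 0.237 kb of such bases in all and no member. Among genes with at least 500 bp of upstream bases that fulfil the rule, a limit chosen after the values were seen, 235 of 1995 had a member (11.8%, 10.4 to 13.3). That share was 13.2% for lncRNA genes (175 of 1327, 11.5 to 15.1), 10.08% for misc_RNA genes (26 of 258), 9.26% for miRNA genes (15 of 162) and 9.40% for ncRNA genes (11 of 117). For snoRNA genes it was 5.50% (6 of 109, 2.55 to 11.5). These 6 snoRNA genes shared their summits, as snoRNA genes stand in clusters.

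**Figure D2:**
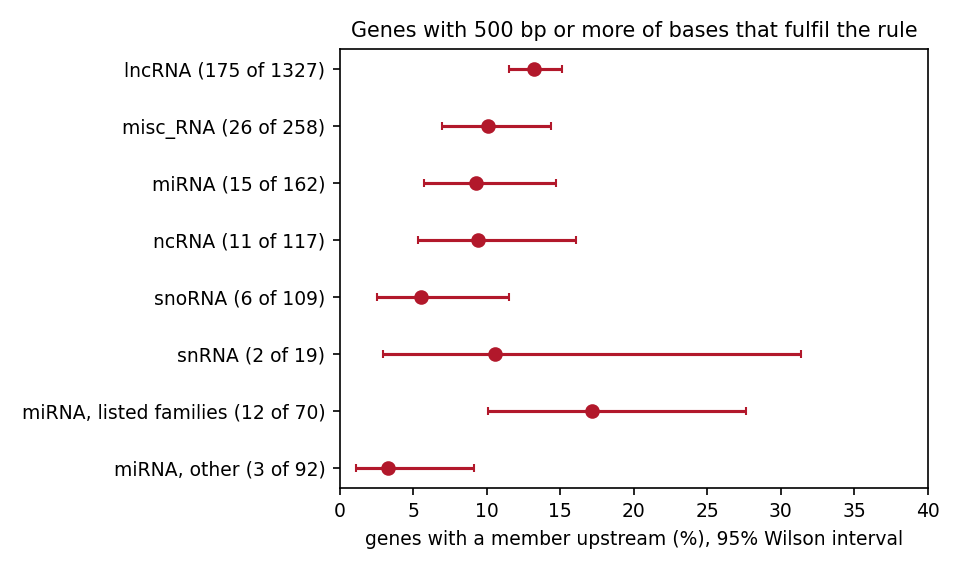
Share of non-coding genes with a member upstream, for genes with at least 500 bp of bases that fulfil the rule, with 95% Wilson intervals and the counts beside each type. The lncRNA share of 13.2% has the narrowest interval, and the miRNA genes are shown once together and once split into listed families (17.1%) and other genes (3.26%).

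The 275 members had no concentration near the TSS. Their distance to the nearest non-coding TSS ran from 1 to 996 bp, with a median of 483 bp (414 to 529), and 143 (52.0%, 46.1 to 57.8) lay within 500 bp. Summits upstream of protein-coding genes had a median distance of 296 bp (283 to 313), and 65.8% of them lay within 500 bp. Per Mb of bases, members were as dense at 1 to 200 bp from the TSS (147, 114 to 188) as at 201 to 1000 bp (150, 130 to 172). The same parts of protein-coding upstream regions carried 387 (370 to 404) and 151 (146 to 157) summits per Mb. The densities of both sets thus differed in the 200 bp next to the TSS and had overlapping intervals beyond.

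**Figure D3:**
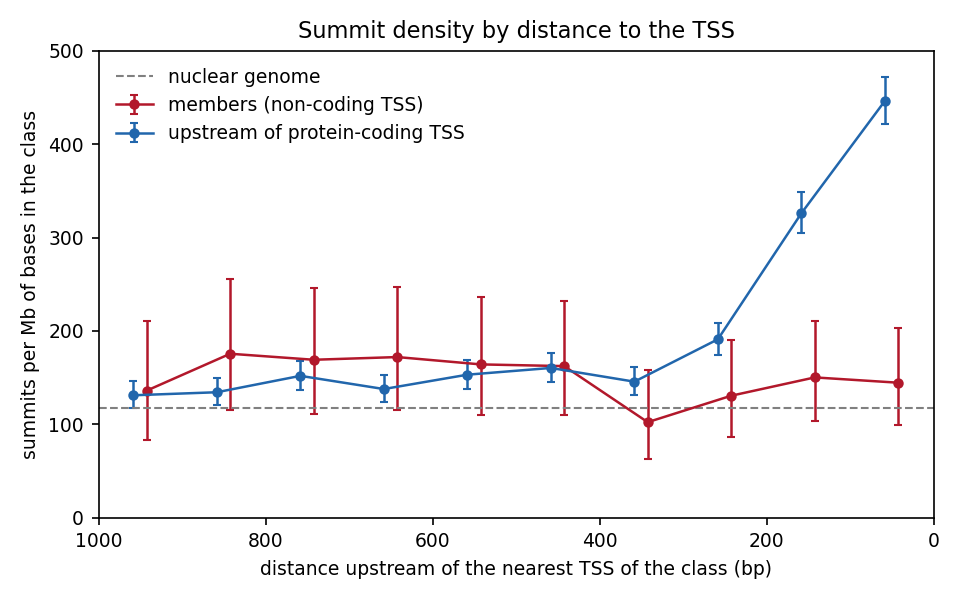
Summits per Mb of bases in 100 bp steps upstream of the nearest TSS, for members (red) and for summits upstream of protein-coding genes (blue), with exact Poisson intervals and a dashed line at the density of the nuclear genome. Members stay between 102 and 176 per Mb, and the blue line rises to 446 in the 100 bp next to the TSS.

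By type, the lncRNA members had 160 per Mb in both parts of the window (118 to 212 at 1 to 200 bp, 137 to 187 beyond). The small ncRNA class had 8 of its 15 members within 200 bp (293 per Mb, 127 to 578) against 78.5 per Mb (31.6 to 162) beyond, and the intervals overlapped. The snoRNA members, 2 within 200 bp (89.4 per Mb, 10.8 to 323) and 1 beyond (33.6 per Mb, 0.85 to 187), were too few to tell. Of the miRNA members, 2 lay within 200 bp and 17 beyond. The annotated 5′ end of a miRNA or snoRNA gene is often that of the precursor or of the RNA itself and that of a lncRNA gene can be uncertain, so the distance to the true start of transcription is not known here. At the outer bound, the members upstream of AT3G01775 (996 bp, score 5.75) and AT3G04375 (994 bp, score 10.13) were just inside. The summits upstream of AT4G09045 (1002 bp, score 54.3) and AT4G07235 (1005 bp, score 10.4) were just outside.

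The nearest end of a protein-coding gene was a 3′ end (TES) for 160 members (58.2%, 52.3 to 63.9), at a median of 808 bp and a lowest distance of 21 bp. For the other 115 it was a TSS, at a median of 1957 bp, where the rule allows no distance under 1 kb. The rule thus favours a TES as the nearest end, and the 58.2% was not set against a share of bases. The median score was 13.6 in both sets. Over all 275 members, density did not fall steadily with the distance past a protein-coding TES. It was 177 per Mb (112 to 265) at 1 to 200 bp, 144 (92.2 to 214) at 201 to 500 bp and 172 (124 to 234) at 501 to 1000 bp. At 1001 to 2000 bp it was 181 (140 to 232), and over all other bases that fulfil the rule 129 (107 to 154).

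Some lncRNA genes run antisense to a protein-coding gene, so that a summit upstream of the lncRNA is also a summit past the 3′ end of the coding gene. Of the 196 lncRNA genes with a member, 33 overlapped a protein-coding gene (16.8%, 12.2 to 22.7), not split by strand. Among lncRNA genes without a member the share was 42.3% (40.6 to 44.0). It was 7.99% (6.56 to 9.69) for those without a member but with at least 500 bp of bases that fulfil the rule. The genes with a member were not held to that limit, so neither excess nor lack can be read from their share. Of the 204 members whose nearest non-coding gene was a lncRNA, 30 had a lncRNA that overlapped a protein-coding gene on the opposite strand, with a median score of 16.5. In 25 of these 30 the member lay past the 3′ end of that same gene, at a median of 460 bp. The 172 members whose lncRNA overlapped no protein-coding gene had a median score of 12.8. The medians of 16.5 and 12.8 have no intervals, and their difference was not tested.

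The highest score of all members, 90.2, belonged to such a case. This summit lay 410 bp upstream of the lncRNA gene AT3G24518 and 409 bp past the 3′ end of HSFC1, which encodes a heat shock transcription factor. The next members scored 86.8 upstream of AT3G02895 (821 bp, with a G-box), 81.9 upstream of AT4G06425 (669 bp), 80.9 upstream of AT3G01765 (586 bp, with a pair of W-boxes) and 79.1 upstream of AT5G05455 (783 bp). All 5 are lncRNA genes with no symbol in the annotation. A member with a score of 76.7 lay 13 bp upstream of the lncRNA gene AT3G01965 and also upstream of the misc_RNA gene AT3G00240 (236 bp). The member upstream of AT4G09495 (72.8) was 2495 bp upstream of MYB73, which encodes a MYB transcription factor. It had a G-box within 50 bp, outside the bases shown above. That of AT5G09365 (64.7) lay 1950 bp past the 3′ end of CYCD4;1, a D-type cyclin gene, and that of AT5G07815 (64.4) lay 685 bp past the 3′ end of AHG1, a protein phosphatase gene. The only member of the first 10 without a lncRNA was the summit of MIR167a, with 65.4.

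Of the members, 177 were the only summit of their peak (64.4%, 58.5 to 69.8), against 56.7% over all summits (55.8 to 57.5). Another 24 peaks held 2 or more members, so that these members share a peak and are not separate binding regions. Only 10 peaks with members, 11 members in all, also held a summit upstream of a protein-coding TSS. Every summit of the peak was a member for 204 of the 275, and the others shared their peak with summits that did not fulfil the rule.

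Of the miRNA genes with a member, 3 lie outside a list of 28 widely studied families and 15 belong to it. The main mature miRNAs of those 15 genes are given to show which of them give the same small RNA. The seed (bases 2 to 8) is in capitals, and the sequences are read 5′ to 3′ from TAIR10.1 at the RefSeq coordinates.
miR167a-5p: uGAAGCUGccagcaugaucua
miR167d: uGAAGCUGccagcaugaucugg
miR167c-5p: uAAGCUGCcagcaugaucuug
miR160a-5p: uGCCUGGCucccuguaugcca
miR160b: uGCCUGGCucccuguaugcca
miR166a-3p: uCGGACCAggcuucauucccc
miR166d: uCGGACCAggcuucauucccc
miR156c-5p: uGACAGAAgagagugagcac
miR159a: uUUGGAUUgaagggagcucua
miR164b-5p: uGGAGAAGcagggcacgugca
miR171b-3p: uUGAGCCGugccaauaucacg
miR168b-5p: uCGCUUGGugcaggucgggaa
miR408-3p: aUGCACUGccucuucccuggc
miR163: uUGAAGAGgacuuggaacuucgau
miR169b-5p: cAGCCAAGgaugacuugccgg

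Both MIR160 genes gave an identical mature miRNA, as did both MIR166 genes. miR167a-5p and miR167d share the seed GAAGCUG, whereas miR167c-5p starts 1 base later in the shared sequence, with the seed AAGCUGC. miR167 and miR160 are known to target auxin response factor genes, miR166 targets the class III HD-ZIP genes of leaf polarity, miR156 the SPL genes of phase change, miR159 MYB genes, miR164 NAC genes of organ boundaries, miR171 GRAS genes, miR168 the Argonaute gene AGO1, miR169 NF-YA genes and miR408 genes of copper proteins.

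The 3 MIR167 genes with a member differed widely in score. MIR167a had 65.4 at 296 bp from the annotated 5′ end, MIR167d 14.3 at 310 bp and MIR167c 5.98 at 837 bp. The MIR160 pair had 12.9 at 451 bp (MIR160a) and 6.58 at 993 bp (MIR160b), and the MIR166 pair 31.5 at 639 bp (MIR166d) and 8.88 at 244 bp (MIR166a). The MIR160a summit also lay 297 bp upstream of a lncRNA gene, AT2G09010. Genes with the same mature miRNA thus had summits of unlike score and position. MIR156c was the only miRNA gene with 2 members, of 14.9 at 522 bp and 6.83 at 209 bp, in 1 peak of 4 summits.

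Among single members, MIR163, whose miRNA targets methyltransferase genes, had 49.9 at 405 bp. MIR171b had 29.2 at 893 bp, MIR159a 21.8 at 400 bp, MIR168b 19.1 at 239 bp and MIR164b 11.1 at 604 bp. MIR408 and MIR169b had lower scores, of 7.87 at 313 bp and 7.84 at 811 bp. The 3 genes outside the listed families had low to middle scores: MIR404 13.5 at 647 bp, MIR5645a 7.30 at 194 bp and MIR863 5.18 at 47 bp. Of all 19 miRNA members, 11 reached a score of 10.

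**Figure D4:**
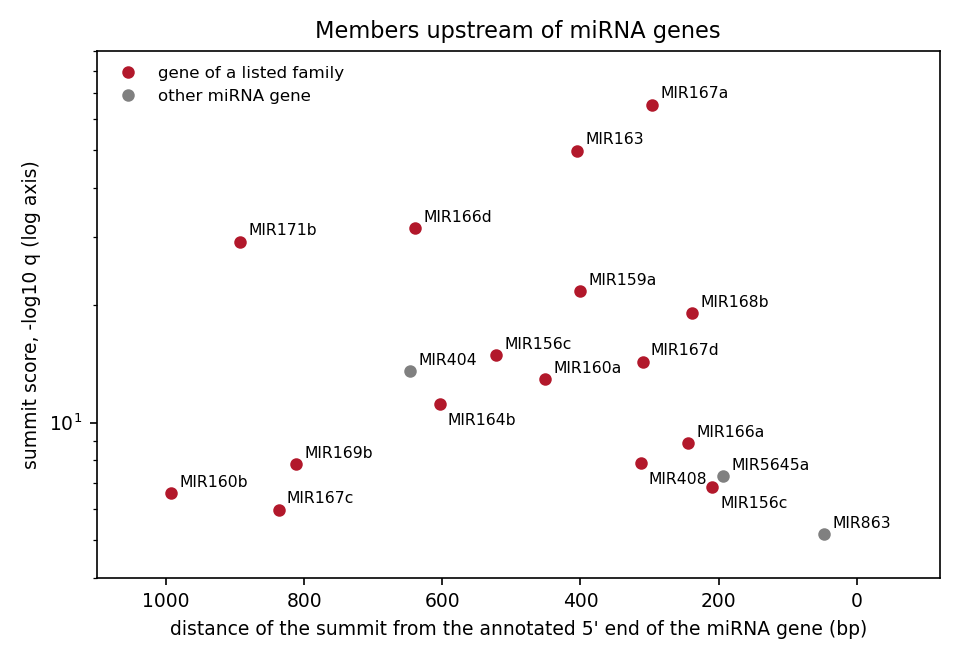
Score (-log10 q, log axis) of each member upstream of a miRNA gene against its distance from the annotated 5′ end of the gene, in red for genes of the 28 listed families and in grey for others. MIR167a (65.4) and MIR163 (49.9) are highest, and score and distance show no common order.

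For the list of 28 widely studied miRNA families, 20 of 96 genes had any upstream summit (20.8%, 13.9 to 30.0), and 15 had a member. Of the other 230 miRNA genes, 17 had one (7.39%, 4.67 to 11.5), and 3 had a member. These shares stand on both sides of the 14.6% over all genes, and their intervals do not overlap. The list of families was drawn up with earlier results of these data known. The contrast is thus a description, and its intervals give it no support. Where at least 500 bp could hold a member, 12 of 70 genes of the listed families had one (17.1%, 10.09 to 27.6) and 3 of 92 others (3.26%, 1.12 to 9.15), again with intervals that do not overlap. MIR167 had members at 3 of 4 genes and MIR160 at 2 of 3. MIR169, with 1 of 14 genes, was at the other end, and MIR172 (5 genes), MIR395 (6 genes), MIR399 (6 genes), MIR319 and MIR398 (3 genes each) had no upstream summit at all.

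TAS genes gave members of different scores. TAS3, the source of small interfering RNAs that target auxin response factor genes, had a summit of 34.3 at 198 bp. TAS4, whose small RNAs target MYB genes, had 9.63 at 879 bp. TAS1B had 6.55 at 25 bp. The weaker summit of TAS1A (3.02 at 10 bp) was no member because it failed an exclusion. TAS1C, TAS2 and TAS3B had no summit upstream, so that 3 of 7 TAS genes had a member. Over the whole ncRNA class 15 of 221 genes had a member, and over all non-coding types 269 of 4987. With 7 genes picked by name, the TAS count is a description and shows no trait of TAS genes. IPS1 and AT4, known as RNAs that bind miR399, are annotated as protein-coding here and had no upstream summit.

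Among other genes of the ncRNA class, AT1G23052 had the highest member, 51.1 at 103 bp, which was also 103 bp past the 3′ end of a hydroxyproline-rich glycoprotein gene. The member upstream of AT4G39404 (22.8 at 942 bp) lay 1255 bp upstream of PLS, which encodes the POLARIS peptide of root growth. That upstream of AT3G06125 (14.9 at 53 bp) lay 536 bp past the 3′ end of MUTE, a bHLH gene of stomatal development. These neighbours are given by position only. In the misc_RNA class, AT2G00740 followed AT3G00240 with 57.4 at 649 bp, then AT1G09085 with 47.2 at 338 bp, AT5G00325 with 41.8 at 634 bp and AT2G00840 with 39.8 at 190 bp.

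The snRNA and snoRNA genes had few members, each upstream of several genes. A summit of 59.4 lay upstream of a U1 snRNA gene (AT1G06873, 248 bp) and of a U4 snRNA gene behind it (615 bp). The U1 gene is annotated as U1.14p with a length of 86 bp, and whether it is a full copy was not examined. A summit of 55.9 lay upstream of 3 snoRNA genes, AT2G06855 (457 bp), AT2G06865 (703 bp) and AT2G17295 (892 bp), and 388 bp past the 3′ end of CPK6, which encodes a calcium-dependent protein kinase. The other 2 snoRNA summits were weak. One of 7.57 lay upstream of AT5G00755 (175 bp) and AT5G00750 (319 bp), with a telo box in the window shown above, and one of 4.25 lay upstream of AT2G04955 (195 bp) and AT2G05765 (370 bp).

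Sequence around the summits was not used by the rule. GC content within 50 bp of the members was 36.2% ± 7.14 (SD over 275 summits), against 31.6% over all bases that fulfil the rule. Summits upstream of protein-coding genes had 37.4% ± 7.62 (their bases 33.1%) and distal summits 36.0% ± 6.82 (30.7%). Members were thus richer in GC than their surroundings by a difference near those of both other sets.

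The G-box CACGTG, bound by bHLH and bZIP factors, lay within 50 bp of 30 members (10.9%, 7.75 to 15.1), against 8.97% of all summits. Only 1.30% of the bases that fulfil the rule lie that close to a G-box, so the share at members was 8.41 times that of their surroundings (5.97 to 11.7 from the Wilson bounds). The same ratio was 7.08 upstream of protein-coding genes (11.0% of summits) and 9.55 at distal summits (10.5%). The members' interval held both. The ABRE core ACGTGG, bound by bZIP factors of abscisic acid response, lay near 27 members (9.82%, 5.33 times the share of the bases, against 8.33% of all summits). It overlaps the G-box in part, and 16 members had both, 14 only the G-box and 11 only the ABRE core.

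Other motifs differed less from the bases. The W-box TTGACC of WRKY factors lay near 23 members (8.36%, 5.64 to 12.2), against 3.73% of the bases that fulfil the rule and 7.22% of all summits. The auxin response element TGTCTC, bound by ARF factors, lay near 30 members (10.9%, 7.75 to 15.1), against 4.50% of bases and 7.63% of all summits. At summits upstream of protein-coding genes its share was 7.14%, below the members' interval, and at distal summits 8.34%, within it. Members with this element had a median score of 21.4, against 12.7 for members without it. The same medians were 16.2 and 13.1 for the G-box, 13.2 and 13.7 for the ABRE core, and 13.8 and 13.6 for the W-box. These medians have no intervals, and a link of motif and score was not tested. The site II element TGGGCC lay near 11 members (4.0%, 2.25 to 7.02), against 1.88% of bases and 4.27% of all summits. The GCC-box GCCGCC of ERF factors lay near 5 members (1.82%, 0.78 to 4.18), against 0.46% of bases and 2.57% of all summits. For these motifs except the auxin response element, the members' interval held the share over all summits. The TATA box TATAAA lay near 44 members (16.0%, 12.1 to 20.8), fewer than the 21.1% of bases and within counting error of the 12.8% of all summits. Summits upstream of protein-coding genes (14.0%, their bases 18.9%) and distal summits (16.8%, their bases 22.5%) also had it less often than their bases.

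The remaining motifs gave no clear excess. The GAGAGA repeat lay near 28 members (10.2%, against 7.35% of bases and 12.6% of all summits), a run AAAAAA near 77 (28.0%, against 32.5% and 23.7%) and the telo box near 2 (0.73%, against 1.51% and 0.772%). No member had the TCP site GTGGGCCC, the evening element AAAATATCT or the upstream sequence element CCCACATCG of snRNA genes within 50 bp (0 of 275, Wilson upper bound 1.38%). These lay near 0.386%, 0.65% and 0.0715% of all summits. Only 1 member lay upstream of snRNA genes, so the lack of the upstream sequence element says little about such genes. Of all members, 193 had none of the G-box, the ABRE core, the W-box and the auxin response element, and 24 had 2 or more of these 4. Neither count was made over all summits, so nothing particular to the members can be read from them. A match is a string of letters and no sign that a factor binds there.

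**Figure D5:**
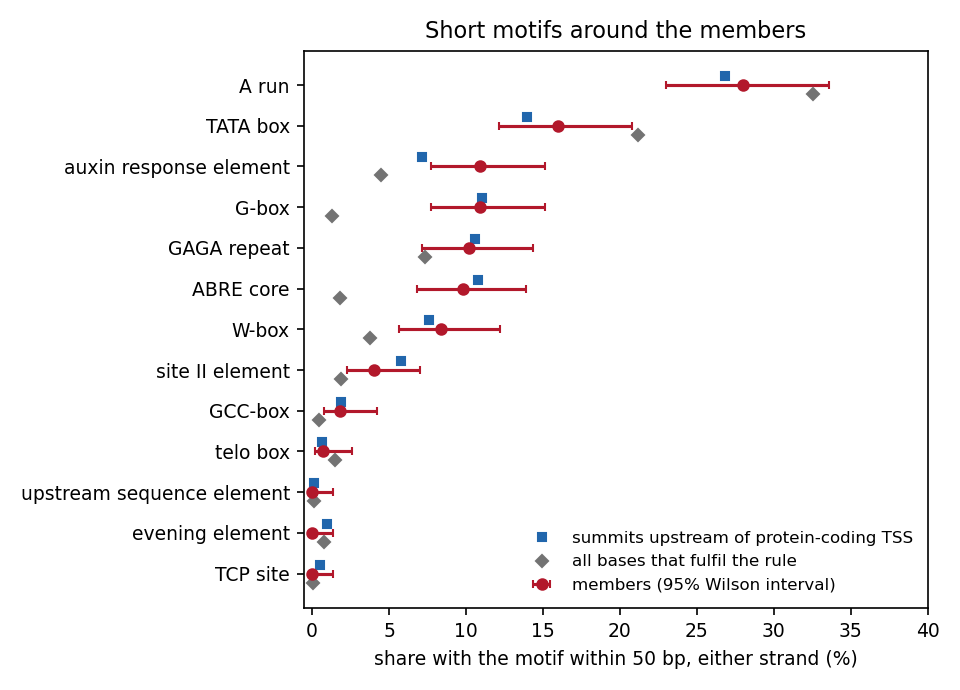
Share of members (red, 95% Wilson intervals), of summits upstream of protein-coding genes (blue) and of all bases that fulfil the rule (grey) with each of 13 motifs within 50 bp on either strand. For the G-box the red and blue points lie at 10.9% and 11.0% and the grey point at 1.30%, and for the TATA box the grey point (21.1%) lies above both.

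By type, the G-box lay near 25 of 208 lncRNA members (12.02%, 8.28 to 17.1), 3 of 19 miRNA members (15.8%, 5.52 to 37.6), 2 of 15 ncRNA members and 1 of 36 misc_RNA members (2.78%, 0.49 to 14.2). The auxin response element lay near 20 of 208 lncRNA members (9.62%, 6.31 to 14.4), 7 of 36 misc_RNA members (19.4%, 9.75 to 35.0) and 4 of 19 miRNA members (21.1%, 8.51 to 43.3). The misc_RNA members thus had the lower G-box share and the higher auxin element share, with intervals that overlapped those of the lncRNA members in both cases. The miRNA genes with a G-box near the summit were MIR168b, MIR408 and MIR5645a, with scores from 7.30 to 19.1.

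The G-box share was higher among strong than among weak summits in all 3 sets. Among members under a score of 10, 9 of 106 had one (8.49%, 4.53 to 15.4), and from 10 upwards 21 of 169 (12.4%, 8.27 to 18.2), with intervals that overlapped. Upstream of protein-coding genes the shares were 7.79% (6.78 to 8.95) and 13.8% (12.5 to 15.1), and at distal summits 7.09% (5.74 to 8.72) and 12.6% (11.2 to 14.2).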

How the data were processed

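ChIP DNA of 2 libraries was sequenced, 1 from MBD9-3xFLAG seedlings and 1 from untagged wild type. The authors aligned reads to TAIR10 without organelles using Bowtie, kept unique reads, removed duplicates (SAMtools) and called peaks once with MACS2 (2.1.1 in the submitters' processing notes) against the wild-type library, at a q value cutoff of 0.01 and with no pooling. The deposited score of a summit is the -log10 q value given by MACS2. No read counts are in the list, so the depth is unknown, and weak summits can be missed.

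Genes and sequence came from the RefSeq annotation of TAIR10.1, and no summit lay beyond its chromosome ends. Densities are summits per Mb of bases that fulfil the same rule, with exact Poisson intervals. Shares have 95% Wilson intervals, and intervals of medians come from order statistics. All these intervals treat summits or genes as independent. Summits that share a peak and genes that share a summit are not, so the intervals can be too narrow. Motif searches covered 50 bp on each side of a summit and both strands. The 50-mer centred on the summit occurs once in the nuclear genome for all 275 members, against 95.5% of the bases that fulfil the rule. Named genes were the 10 highest members, up to 12 genes of each type other than lncRNA, 22 known non-coding RNAs (9 matched by symbol), miRNA genes of 28 families, and the summits nearest the 1 kb bound. The names without a match, such as COOLAIR, APOLO and FLORE, were not searched by locus, so whether they had a member is not known. Members, lists and motifs were chosen with earlier results of these data known, so no p-value is given. Python 3.11.15, NumPy 2.4.6, pandas 2.3.3, SciPy 1.17.1 and Matplotlib 3.10.9 were used. The rule was tested on simulated positions.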

Additional observations from a re-analysis of the deposited data

How the results depend on the processing

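Of 37 alternatives for 8 results, 21 stayed within the interval of the value given or, for the count of members, within 1.5 times of it. The 500 bp window, which also narrows the exclusion around protein-coding TSSs, gave 174 members, an upstream summit at 6.70% of lncRNA genes and a median distance of 242.5 bp. The 2 kb window gave 19.7% and 879 bp. A score of at least 10 left 169 members, 91.9 per Mb, 7.5% of lncRNA genes and a GC content of 37.2%. With 1 summit per peak, density was 116.9 per Mb and GC content 37.0%. With summits inside protein-coding genes kept, there were 478 members with a median score of 11.0. GC content was 36.9% with 25 bp flanks and 35.1% with 100 bp flanks, and the G-box share was 16.7% with 100 bp flanks. Shorter windows and fewer summits lower counts, shares of genes and distances by construction. At 1 summit per peak, the density of the members was as low as that of all summits, which were not reduced in this way.

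No paired analysis was possible because the labels give a single library per group. The scores and positions come from 1 library, so biological variation between plants is not covered by any interval, and neither the number of members nor the lack of a summit at a given gene shows what another library would give.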
